A study of Homo sapiens with 9 samples.

Results

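TMTC4, A4GALT, MEGF9, LRP8 and RAB27A are 5 of the 47753 gene names measured on arrays of hypoxic OEC-M1 cells, an established line of head and neck squamous cell carcinoma. They were selected on the values described here: they had the largest rise, by the smaller of their 2 changes, among named genes that were called higher in both GATA3 knockdown and HIF-1α knockdown than in si-Control, were higher in every pair of arrays with the same number and were well above background on every array of at least 1 group. Each gene was read by 1 probe, so 5 of 58201 probes are concerned. All cells were kept under 1% O2 for 18 h after transfection with siRNA, which the labels give as 72 h. There were 3 arrays of cells that received a non-targeting siRNA (si-Control), 3 of cells that received siRNA to GATA3 (GATA3 knockdown) and 3 of cells that received siRNA to HIF1A (HIF-1α knockdown). No normoxic or untransfected cells were among these samples. The study's legend on the array genes names a single siRNA for each target, so the effect of the siRNA itself and that of losing its target cannot be told apart. The labels do not say whether arrays of a group came from separate cultures, and P values then measure only the spread between these samples.

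The 5 genes belong to separate pathways of the cell surface and the secretory route. TMTC4 is an enzyme of the endoplasmic reticulum that adds O-linked mannose to cadherins. A4GALT, the α1,4-galactosyltransferase of the Golgi, makes globotriaosylceramide, a glycosphingolipid known as the Pk blood group antigen and as the receptor of Shiga toxin. MEGF9 is a membrane protein whose outer part carries laminin-type EGF repeats. LRP8, also called ApoER2, is a receptor of the LDL receptor family that binds reelin and apolipoprotein E. RAB27A is a small GTPase that brings secretory granules, melanosomes and the vesicles that release exosomes to the plasma membrane. HIF-1α is the oxygen-regulated subunit of the transcription factor HIF-1, and GATA3 is a transcription factor that binds GATA motifs.

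The sequence before each start site is shown because the 5 genes were selected for a rise in both knockdowns and both silenced proteins bind DNA. The windows come from RefSeq (GRCh38.p14) and run from 250 bases before to 50 bases after a start site. Letters searched on both strands were ACGTG or GCGTG, the core of the HIF-1 site, and for GATA factors the letters GATA with A or T before them and A or G after them. Capitals mark a match on either strand, and the sequences read 5′ to 3′ on the minus strand, on which all 5 genes lie. ACGTG also lies within CACGTG, the E-box of other factors. For A4GALT and RAB27A the window at the outermost start site is printed, and for TMTC4, whose window lies inside its gene, only 30 bases around the match.
TMTC4, chr13:100674874-100674903: gggcgcccgcgcGCGTGgggagctgcggga
A4GALT, chr22:42721302-42721551: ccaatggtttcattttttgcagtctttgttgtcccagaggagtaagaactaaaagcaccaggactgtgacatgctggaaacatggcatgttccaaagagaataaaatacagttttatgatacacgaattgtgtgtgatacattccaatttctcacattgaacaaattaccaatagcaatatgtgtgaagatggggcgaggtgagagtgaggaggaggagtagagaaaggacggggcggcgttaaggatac
MEGF9, chr9:120714471-120714720: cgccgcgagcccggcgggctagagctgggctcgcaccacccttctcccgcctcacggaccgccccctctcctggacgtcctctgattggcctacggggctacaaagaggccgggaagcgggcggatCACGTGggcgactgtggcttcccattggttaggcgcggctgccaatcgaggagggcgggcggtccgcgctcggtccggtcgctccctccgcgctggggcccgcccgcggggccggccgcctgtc
LRP8, chr1:53328071-53328320: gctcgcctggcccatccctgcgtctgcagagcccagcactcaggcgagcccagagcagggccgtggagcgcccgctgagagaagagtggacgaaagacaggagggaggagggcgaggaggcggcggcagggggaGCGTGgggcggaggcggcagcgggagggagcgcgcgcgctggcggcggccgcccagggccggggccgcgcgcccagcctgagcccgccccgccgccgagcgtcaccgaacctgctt
RAB27A, chr15:55319124-55319373: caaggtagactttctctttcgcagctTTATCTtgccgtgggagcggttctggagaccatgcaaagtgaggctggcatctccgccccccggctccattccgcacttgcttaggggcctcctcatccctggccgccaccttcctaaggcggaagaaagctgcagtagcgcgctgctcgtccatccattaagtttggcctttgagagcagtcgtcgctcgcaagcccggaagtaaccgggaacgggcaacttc

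A HIF-1 core was found at 96 bases before the start site in TMTC4 and at 116 bases before it in LRP8, in both as GCGTG. In MEGF9 the core formed the palindrome CACGTG, with matches on both strands that begin 124 and 123 bases before the start site. The outermost window of RAB27A held ACGTG only after its start site, beginning at base 15, and a GATA match on the opposite strand beginning 224 bases before it. Neither of the 2 windows of A4GALT held any of the letters searched. Of 35116 windows in the table, 48.4% held a HIF-1 core and 25.0% a GATA match, so these are common letters. RAB27A had 5 windows, of which 3 held a HIF-1 core and 2 a GATA match. A match is a description of the letters in a window and does not show binding.

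The values are the scanner's spot intensities after background correction and quantile normalization, on the log2 scale, so a difference of 1 is a doubling of intensity. Median spot intensities spanned 992.5 to 2807.5 for si-Control, 1410 to 2452 for GATA3 knockdown and 2132 to 3560 for HIF-1α knockdown, and 73.3% to 88.0% of probes were well above background. GATA3 was at 11.10 ± 0.38 (SD, n = 3) in si-Control and at 9.84 ± 0.49 in GATA3 knockdown, a log2 change of -1.27 with an adjusted P of 1.00 in limma. HIF1A was at 16.73 ± 0.50 in si-Control and at 14.41 ± 0.25 in HIF-1α knockdown, a log2 change of -2.32 with an adjusted P of 0.295. Both targets were lower than si-Control in 3 of 3 pairs of arrays. Of 12 squamous epithelial markers 10 were well above background on all 9 arrays, whereas KRT5 was not on any. The probe taken for PTPRC, a leukocyte marker, read a mean log2 intensity of 16.13 in si-Control, and whether such probes are annotated correctly was not checked. Of the leukocyte markers 3 of 4, of the endothelial 3 of 3 and of the fibroblast 2 of 4 were well above background on all 9 arrays.

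A gene was called at an unadjusted P of 0.05 in limma, the threshold given in the study's supplementary methods. This picked 2.97% of genes in GATA3 knockdown against si-Control, with 1.59% higher, and 5.23% in HIF-1α knockdown against si-Control, with 1.95% higher. With a replicate block (same-numbered arrays shared a slide) the counts went from 1418 to 2381 and from 2478 to 3983. The si-Control arrays are shared by these comparisons, and 49 genes, 0.103% of 47353 tested in both, were called higher in both. All 5 genes are among these 49 by selection, and nothing is read from that count. After adjustment no gene of the array passed a P of 0.05 in either comparison.

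**Figure D1:**
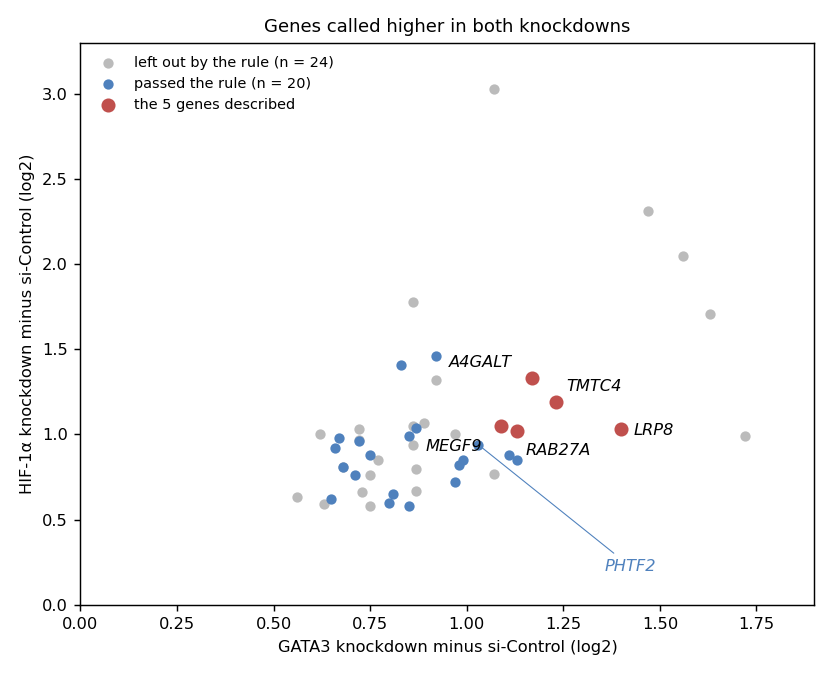
Log2 difference from si-Control in GATA3 knockdown (horizontal) and HIF-1α knockdown (vertical) for the 49 genes called higher in both, with 1 point per gene. The 5 genes described (red) lie at 1.09 to 1.40 in GATA3 knockdown and at 1.02 to 1.33 after HIF-1α knockdown, and PHTF2 is the next gene by the smaller of its 2 changes among the 25 that met the other conditions of the selection.

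Of the 49 genes, 25 carried a symbol, exceeded the background clearly on every array of at least 1 group and rose in every pair of arrays with the same number. Ranked by the smaller of their 2 changes, the 5 genes stood at 1.19 for TMTC4, 1.17 for A4GALT, 1.05 for MEGF9, 1.03 for LRP8 and 1.02 for RAB27A. The gene just outside was PHTF2, with log2 changes of 1.03 and 0.94. RAB27A and PHTF2 were therefore 0.07 apart, less than the spread between replicates of either gene. METTL4, with a smaller change of 1.47, and ZBTB7C, with 1.07, ranked higher but lacked a value on 5 and on 4 of the 9 arrays. HDGFL3, with 0.99, was higher in 2 of 3 pairs in HIF-1α knockdown.

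**Figure D2:**
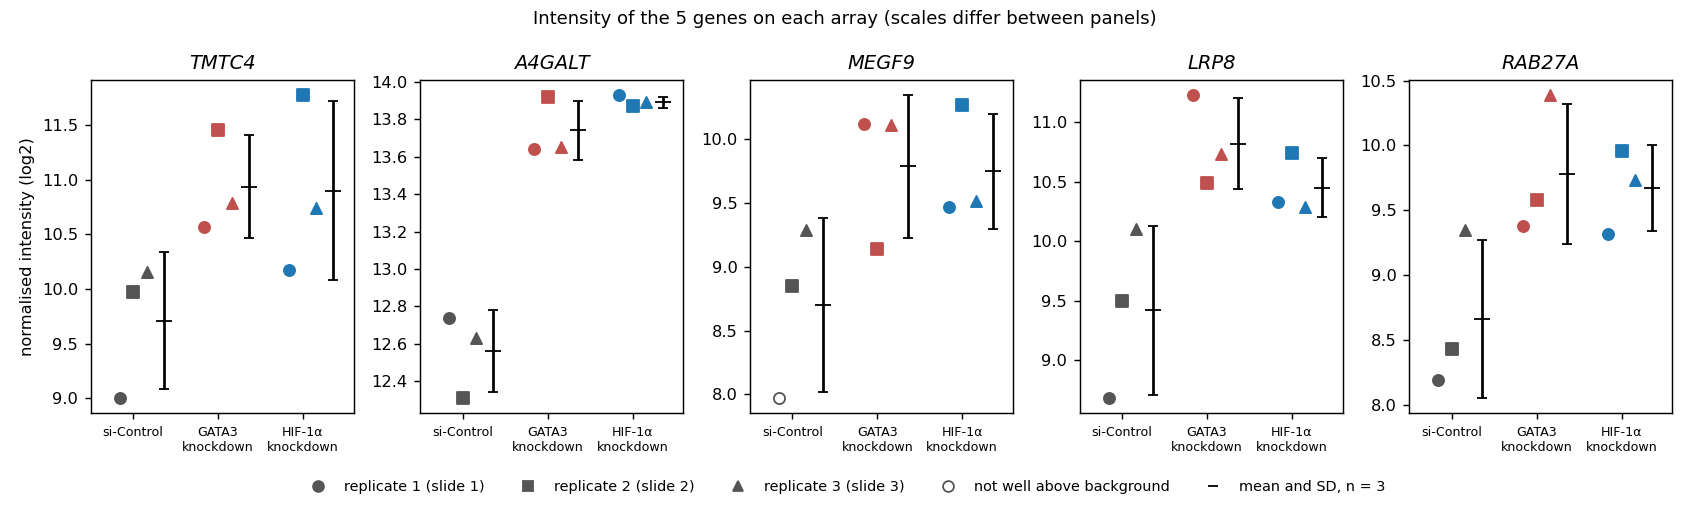
Normalised log2 intensity (vertical) of each gene on each of the 9 arrays by group (horizontal), with symbols for the replicate number, an open symbol for a probe not well above background, and the mean with its SD (n = 3) beside each group. In A4GALT both knockdowns lie at 13.64 or above and si-Control at 12.74 or below, whereas in MEGF9 and RAB27A 1 knockdown overlaps si-Control.

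A4GALT had the tightest replicates of the 5 genes. On the si-Control arrays the log2 intensity of A4GALT was 12.74, 12.31 and 12.63. It was 13.64, 13.92 and 13.65 in GATA3 knockdown. It was 13.93, 13.87 and 13.89 in HIF-1α knockdown. All 6 knockdown arrays lay above all si-Control arrays, by at least 0.90 in GATA3 knockdown and 1.13 after HIF-1α knockdown. The group SD was 0.22, 0.16 and 0.03 in this order, and the mean log2 difference was 1.17 in GATA3 knockdown and 1.33 after HIF-1α knockdown, or 2.26-fold and 2.52-fold. Within slides, each of which held 1 array of every group, the rise of A4GALT ran from 0.90 to 1.60 in GATA3 knockdown and from 1.19 to 1.55 after HIF-1α knockdown.

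TMTC4 varied more between arrays. Its log2 intensity was 9.0, 9.97 and 10.16 in si-Control. In GATA3 knockdown it was 10.57, 11.46 and 10.79. In HIF-1α knockdown it was 10.17, 11.78 and 10.74. The groups did not overlap, but the lowest HIF-1α knockdown array exceeded the highest si-Control array by only 0.004. The mean difference was 1.23 in GATA3 knockdown and 1.19 after HIF-1α knockdown, against a group SD of 0.63 in si-Control, 0.47 in GATA3 knockdown and 0.82 after HIF-1α knockdown. Within slides the rise of TMTC4 was 1.57, 1.49 and 0.63 in GATA3 knockdown and 1.17, 1.81 and 0.58 after HIF-1α knockdown, lowest on slide 3 in both. Without HIF-1α knockdown replicate 2 the HIF-1α difference was 0.75, and without replicate 1 of that group it was 1.55.

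For MEGF9, 1 of the knockdowns overlapped si-Control. Its log2 intensity in si-Control was 7.97, 8.85 and 9.29, and the first of these was not well above background. It was 10.12, 9.14 and 10.11 in GATA3 knockdown. It was 9.47, 10.27 and 9.52 in HIF-1α knockdown. GATA3 knockdown replicate 2 lay below si-Control replicate 3, so these groups overlapped, whereas HIF-1α knockdown stayed above si-Control by 0.17. The mean difference was 1.09 in GATA3 knockdown and 1.05 after HIF-1α knockdown. Both means include the si-Control reading that was not well above background, so neither is exact. MEGF9 met the background condition of the selection only in the knockdown groups. On slides 2 and 3 the difference was 0.29 and 0.81 in GATA3 knockdown and 1.42 and 0.23 after HIF-1α knockdown, and slide 1 gives no exact difference because its si-Control reading was near background. Without si-Control replicate 1 the differences were 0.72 and 0.68. With the scanner software's processed signal, or the authors' log2 table, the HIF-1α difference of MEGF9 was 1.75 or 1.76.

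LRP8 had the largest mean rise in GATA3 knockdown among the 5 genes. Its log2 intensity was 8.68, 9.50 and 10.10 in si-Control. It was 11.23, 10.49 and 10.73 in GATA3 knockdown. It was 10.33, 10.74 and 10.29 in HIF-1α knockdown. Neither knockdown overlapped si-Control, with gaps of 0.40 in GATA3 knockdown and 0.19 after HIF-1α knockdown. The mean difference of LRP8 was 1.40 (2.63-fold) in GATA3 knockdown and 1.03 (2.04-fold) after HIF-1α knockdown. The rise differed between slides, at 2.56, 1.00 and 0.63 on slides 1 to 3 in GATA3 knockdown and 1.65, 1.24 and 0.19 after HIF-1α knockdown. With 1 array of each group per slide, the slide cannot be told apart from the single arrays. Without si-Control replicate 1 the HIF-1α difference was 0.65.

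RAB27A was read at 8.19, 8.43 and 9.35 in si-Control. It was 9.38, 9.58 and 10.39 in GATA3 knockdown. It was 9.32, 9.96 and 9.73 in HIF-1α knockdown. GATA3 knockdown lay above si-Control by 0.03, and HIF-1α knockdown replicate 1 lay just below si-Control replicate 3. The mean difference of RAB27A was 1.13 in GATA3 knockdown and 1.02 after HIF-1α knockdown. Within slides it was 1.19, 1.15 and 1.04 in GATA3 knockdown, the most even of the 5 genes, and 1.13, 1.53 and 0.38 in HIF-1α knockdown.

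Counted over the group, 4 of the 5 genes had every GATA3 knockdown array above every si-Control array, the exception being MEGF9, and 4 of 5 had this in HIF-1α knockdown, the exception being RAB27A. Of 39926 genes with a value on all 9 arrays, 2.61% did so in GATA3 knockdown, 5.16% in HIF-1α knockdown and 0.376% in both. TMTC4, A4GALT and LRP8 did so in both. Because the genes were chosen for these differences the counts are descriptions.

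The si-Control arrays differed from each other in a shared way. In TMTC4, MEGF9, LRP8 and RAB27A, the normalised value was lowest on si-Control replicate 1 and highest on replicate 3, with ranges of 1.16 to 1.42 between these 2 arrays on the log2 scale. Over the array 30.7% of 43878 genes had this order. The raw spot intensities of the same genes did not have it: the median intensity of MEGF9 was 284 on both arrays, and that of RAB27A was 311 on replicate 1 and 300 on replicate 3. The median intensity of the whole array was 2807.5 on replicate 1 and 992.5 on replicate 3, the brightest and the dimmest of the si-Control arrays. A4GALT, at 9766.5 and 3201 before normalization, kept nearly the same normalised value on these arrays. Over all 9 arrays, group differences included, normalised values correlated with the log2 median array intensity at -0.11 for TMTC4 and -0.34 for MEGF9. The correlation was -0.30 for LRP8, -0.31 for RAB27A and 0.33 for A4GALT. Whether the brightness of an array had a part in the spread of the 4 genes was not tested.

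**Figure D3:**
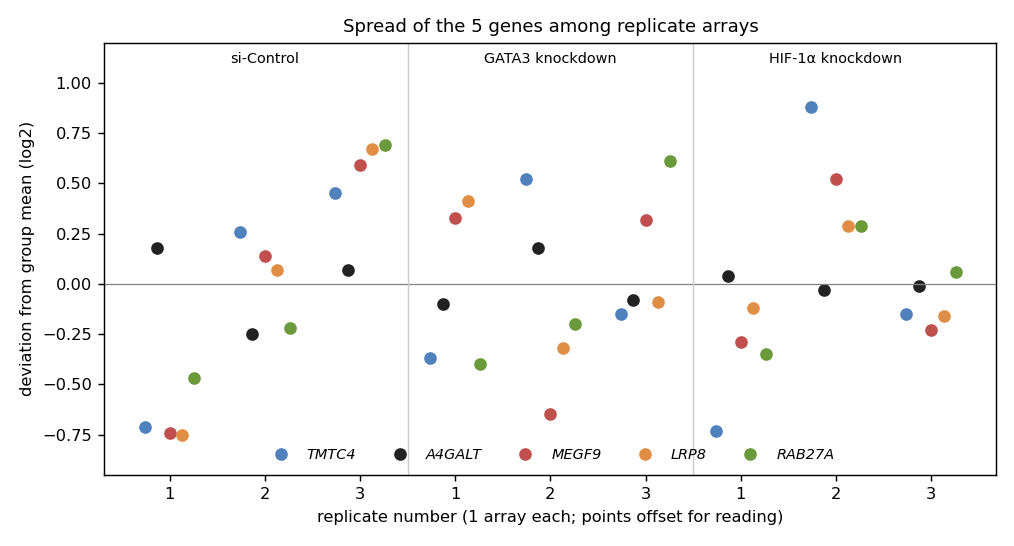
Deviation of each gene's log2 intensity from its group mean (vertical) on each of the 9 arrays (horizontal), with 1 colour per gene. TMTC4, MEGF9, LRP8 and RAB27A lie between -0.75 and -0.47 on si-Control replicate 1 and between 0.45 and 0.69 on replicate 3, whereas A4GALT stays within 0.25 of its group means.

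Deviations from group means correlated positively in every pair among TMTC4, MEGF9, LRP8 and RAB27A, though the genes did not move together on every array. On GATA3 knockdown replicate 2, TMTC4 deviated by 0.52 but MEGF9 by -0.65 and LRP8 by -0.32. The order of the si-Control arrays, which 30.7% of 43878 genes had, enters these correlations. MEGF9 and LRP8 were the closest pair, with a Pearson correlation of 0.93 over the 9 arrays and of 0.90 over the deviations from group means. RAB27A followed MEGF9 in these deviations with 0.66, and TMTC4 followed the other members of this set with 0.46 to 0.53. A4GALT did not, with correlations of -0.60 to -0.10 with the other 4 genes once the group means were removed. The correlations over the 9 arrays include the rise for which the genes were selected, which raises them. For A4GALT they were 0.62 to 0.73 with the other 4 genes before the group means were removed. The points share their arrays and normalization, so all these correlations are descriptions over 9 arrays.

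Among 17244 genes with a symbol and a reading well above background on at least 6 arrays, ELOVL5, an elongase of polyunsaturated fatty acids, was the most like MEGF9 (r = 0.975), followed by RFC5 (0.956) and VRK1 (0.954). Among the genes most like LRP8 were SNRPG (0.944) and ACLY (0.937), which makes cytosolic acetyl-CoA. ACLY differed from si-Control by 1.35 in GATA3 knockdown and by 0.70 after HIF-1α knockdown. Most like RAB27A were MICAL2 (0.967), POGLUT2 (0.965) and TOR1B (0.958). Most like TMTC4 were ADGRA3 (0.962), PPP1R3E (0.959) and GK (0.957), the glycerol kinase. A4GALT had the lowest top value, with NDUFA3 (0.928), PWAR4 (0.912) and SYT12 (0.894). These genes rank by shape only, and NDUFA3 differed from si-Control by 0.36 and 0.34.

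The 2 knockdowns were also set against each other, with the spread estimated over all 9 arrays. In this comparison 12.0% of 47356 genes were called, and 0 of the 5 genes were, at an unadjusted P of 0.05 or after adjustment in limma. LRP8 had the largest difference, 0.37 higher in GATA3 knockdown with a 95% interval of -0.45 to 1.19 (adjusted P = 0.621). A4GALT was lower in GATA3 knockdown by -0.16 (-0.65 to 0.33, adjusted P = 0.727). For TMTC4 the difference was 0.04 (-0.98 to 1.07), for MEGF9 0.04 (-0.88 to 0.95) and for RAB27A 0.11 (-0.73 to 0.95), with adjusted P values of 0.971, 0.973 and 0.899. With only the 6 knockdown arrays in the fit the count over all genes went from 5675 to 8630, and 0 of the 5 genes were called. Within slides each of the 5 genes took both signs, with GATA3 knockdown minus HIF-1α knockdown at 0.66, -1.13 and 0.58 for MEGF9, 0.91, -0.24 and 0.44 for LRP8 and 0.06, -0.39 and 0.66 for RAB27A. It was 0.40, -0.32 and 0.05 for TMTC4 and -0.29, 0.05 and -0.23 for A4GALT. The intervals of TMTC4, MEGF9, LRP8 and RAB27A leave room for differences of about the size of the rises themselves, so equal levels are not shown. Members were chosen for the smaller of their 2 changes, which favours similar changes.

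**Figure D4:**
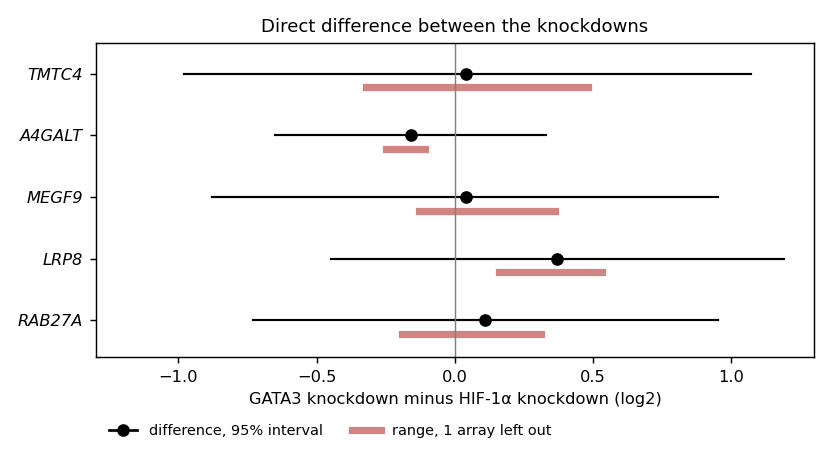
Log2 difference between GATA3 knockdown and HIF-1α knockdown (horizontal) for each gene (vertical), with its 95% interval (black) and the range when 1 of the 9 arrays is left out (red). Every interval includes 0, and that of A4GALT, from -0.65 to 0.33, is the narrowest.

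From lists of 97 genes around the 5 proteins, 4 were called in GATA3 knockdown, all higher, which is 4.12% against 2.97% of all genes. In HIF-1α knockdown 1 was called higher and 5 lower of 95 tested, 6.32% against 5.23%. Between the knockdowns 10 were higher and 5 lower in GATA3 knockdown, 15.8% against 12.0%. The median log2 difference over the lists was -0.07, -0.10 and 0.03 in these comparisons, against -0.02, -0.01 and 0.00 over all genes. With the replicate block the counts were 10, 13 and 21 in place of 4, 6 and 15. They also moved with single arrays. Without si-Control replicate 3 the count in GATA3 knockdown was 18, and without GATA3 knockdown replicate 2 it was 8. In HIF-1α knockdown it was 16 without si-Control replicate 1 and 3 without HIF-1α knockdown replicate 1. Between the knockdowns it was 7 or 6 without GATA3 knockdown replicate 1 or 3 and 8 without HIF-1α knockdown replicate 1, but 23 without si-Control replicate 3 and 24 without GATA3 knockdown replicate 2. No listed gene passed after adjustment, the lowest adjusted P in limma being 0.150 for SORL1 between the knockdowns.

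Around TMTC4, none of 15 genes of protein O-mannosylation was called in either knockdown against si-Control. TMTC1, TMTC2 and TMTC3, enzymes of the same family, differed from si-Control by 0.19, -0.34 and 0.56 in GATA3 knockdown and by -0.36, -0.76 and -0.40 after HIF-1α knockdown. POMT2, a mannosyltransferase that acts on dystroglycan, was lower by -0.55 in GATA3 knockdown than after HIF-1α knockdown, a call kept in 6 of 13 other settings and in 3 of 9 fits with 1 array left out.

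Around A4GALT, none of 23 genes of glycosphingolipid synthesis and breakdown was called in GATA3 knockdown. B4GALT6, a lactosylceramide synthase that makes the lipid A4GALT extends, was called higher in HIF-1α knockdown by 0.75 (SE 0.23). No si-Control array read B4GALT6 well above background, against 2 of 3 HIF-1α knockdown arrays, so its fold is a bound, at least 1.68-fold higher at these settings. Over 12 other settings the log2 difference of B4GALT6 ran from 0.55 with the mean of its probes to 1.73 with the processed signal or the authors' table, and the call was lost at 0.60 with 75th percentile scaling. HEXA, a subunit of lysosomal β-hexosaminidase, was called lower by -0.74 in HIF-1α knockdown, at 13.45 ± 0.26 against 14.19 ± 0.53, and the call was kept in 8 of 13 other settings and in 4 of 9 fits with 1 array left out. TM9SF2, a Golgi protein needed for globotriaosylceramide synthesis, was higher in GATA3 knockdown than after HIF-1α knockdown by 0.97, a call kept in 6 of 9 such fits. UGCG, which makes glucosylceramide, and GLA, which breaks globotriaosylceramide down, differed from si-Control by -0.23 and -0.05 in GATA3 knockdown and by -0.14 and 0.38 after HIF-1α knockdown, and neither was called.

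Around MEGF9, ATRN, a membrane protein with EGF and laminin-type repeats, was called higher in GATA3 knockdown. Its log2 intensity was 12.75, 13.22 and 14.18 in si-Control, 14.71, 14.06 and 14.86 in GATA3 knockdown and 12.06, 12.81 and 12.90 after HIF-1α knockdown. The difference was 1.16 (SE 0.40) in GATA3 knockdown and -0.79 after HIF-1α knockdown, the latter not called, and 1.96 between them. The call against si-Control was lost without si-Control replicate 1, or without GATA3 knockdown replicate 1 or 3, whereas that between the knockdowns was kept in all 9 fits. CELSR3, an atypical cadherin, was called lower in HIF-1α knockdown by -0.68, in 4 of 9 such fits and 5 of 13 other settings, and the call was lost with the replicate block. Between the knockdowns 5 of 13 genes tested were called, among them MEGF6, at -1.59 in GATA3 knockdown relative to HIF-1α knockdown and called in all 9 fits. The others were MEGF10 at -0.88, NTN4 at -0.73 and CELSR3 at 0.67. MEGF10 was well above background on 5 of the 9 arrays, and the calls of MEGF10 and NTN4 were kept in 4 and 5 of 9 fits.

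Around LRP8, 3 of 21 genes of the LDL receptor family and the reelin pathway were called higher in GATA3 knockdown. This was 14.3% of the list, against 1.59% of all genes called higher and 2.97% called in either direction. It was the highest share of the 5 lists, which together had 4.12%. The count over all 5 lists ran from 3 to 18 with 1 array left out. LRP6 and LRP5, co-receptors of Wnt proteins, rose by 0.76 (SE 0.25) and 0.57 (SE 0.23), and the call of LRP5 was lost without si-Control replicate 1 or 2 or GATA3 knockdown replicate 1. LRP5 was called in 9 of 13 other settings. SORL1, a sorting receptor of endosomes, went in opposite directions. It was read at 12.84, 12.81 and 13.29 in si-Control, at 14.34, 13.40 and 13.99 in GATA3 knockdown and at 12.11, 12.46 and 12.02 after HIF-1α knockdown. The 3 groups of SORL1 did not overlap, and it was higher by 0.93 (SE 0.29) in GATA3 knockdown and lower by -0.79 (SE 0.29) after HIF-1α knockdown. The direct difference was 1.71 (SE 0.29, adjusted P = 0.150 in limma), called in all 9 fits with 1 array left out, while the fall against si-Control was not called without si-Control replicate 3 or without HIF-1α knockdown replicate 1 or 3. That fall was called in 10 of 13 other settings, and the call was lost with the processed signal, the authors' table and array brightness as a covariate. DAB2, an endocytic adaptor, was at -0.90 in GATA3 knockdown relative to HIF-1α knockdown, called in 5 of 9 fits. VLDLR, the other reelin receptor, was at -0.35 and -0.42 and was not called.

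Around RAB27A, none of 23 listed genes was called in GATA3 knockdown. The list holds RAB27 effectors and regulators and other RAB GTPases, such as RAB27B and RAB3A. SYTL2 and SYTL3, synaptotagmin-like proteins that tether RAB27 vesicles to the membrane, were called lower in HIF-1α knockdown. SYTL2 was read at 13.13, 14.37 and 14.96 in si-Control, at 14.99, 14.79 and 14.95 in GATA3 knockdown and at 12.09, 13.38 and 12.88 after HIF-1α knockdown. Its difference in HIF-1α knockdown was -1.37 (SE 0.46), not called without si-Control replicate 3 or HIF-1α knockdown replicate 1. SYTL3 was at 11.22 ± 0.08 in HIF-1α knockdown and 12.10 ± 0.45 in si-Control, a difference of -0.88 (SE 0.26) that was called in all 9 fits. Between the knockdowns SYTL2, CHM, MYO5A, SYTL3 and RAB3A were higher in GATA3 knockdown by 2.13, 1.13, 1.07, 0.97 and 0.63. With 1 array left out the calls of SYTL2 and SYTL3 were kept in all 9 fits, that of CHM in 7 and that of MYO5A in 4. CHM is the escort protein that presents RAB proteins for prenylation, and MYO5A is the myosin that carries melanosomes with RAB27A. RAB27B, the closest relative of RAB27A, was at -0.38 in GATA3 knockdown and 0.04 after HIF-1α knockdown and was not called.

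**Figure D5:**
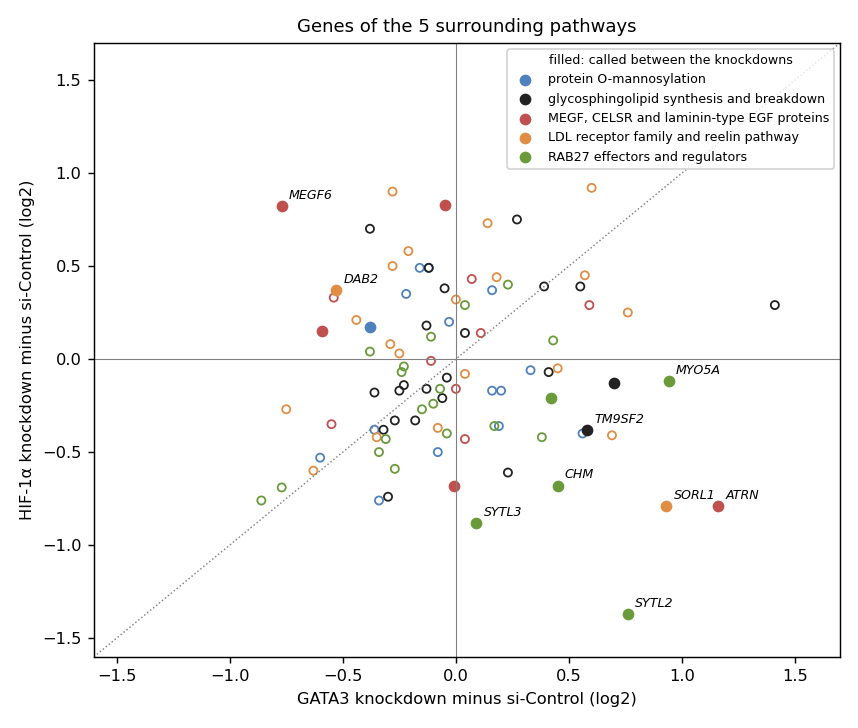
Log2 difference from si-Control in GATA3 knockdown (horizontal) and in HIF-1α knockdown (vertical) for the 95 listed genes tested in both, with 1 colour per list, filled points for genes called between the knockdowns and a dotted line of equal change. SORL1, ATRN, SYTL2 and CHM lie to the lower right, higher than si-Control in GATA3 knockdown and lower after HIF-1α knockdown, and MEGF6 lies to the upper left.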

How the data were processed

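Dye-labelled cDNA made from total RNA of OEC-M1 cells was hybridised to 9 Agilent 1-dye arrays. The authors deposited, per array, the median spot intensity and local background intensity on a linear scale from Agilent Feature Extraction 10.5.1.1, not normalized between arrays. They also deposited a table of log2 values: on each array 99.81% to 99.89% of them were within 0.001 of the log2 processed signal less 1 constant, with the 75th percentile at 0. The number of arrays, not a read depth, limits precision.

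Following the supplementary methods, non-uniform spots were set to missing, and normexp (offset 50) and quantile normalization were applied in R 4.3.3 with limma 3.58.1. The background method is not given in the sources used here. Control spots were dropped, repeated spots were averaged per probe, and a gene was represented by its brightest probe. Accessions of 31104 of 58201 probes matched a RefSeq symbol. The 3 groups were fitted together with lmFit and eBayes, two-sided, with Benjamini-Hochberg adjustment over all genes. The fit was tested on simulated data.

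Members and lists were chosen with earlier results of these data known. Genes named besides the members were the siRNA targets, the next gene in rank, at most 4 called genes per list and comparison with the largest change, and the 3 most correlated genes per member. CELSR3 and RAB3A between the knockdowns, METTL4, ZBTB7C and HDGFL3, and uncalled relatives were named after their values were seen. A fold bound was taken, per array, against the dim probe itself or the lowest probe called well above background, whichever was higher, and covers no spread between arrays.

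Same-numbered arrays shared a slide. Deviations of same-numbered arrays from their group means correlated at 0.216, 0.592 and 0.723 between si-Control and GATA3 knockdown. Between si-Control and HIF-1α knockdown they correlated at 0.606, 0.124 and 0.066, and between the knockdowns at 0.335, -0.189 and 0.104. Arrays with the same number were therefore alike to an uneven degree in each comparison. Alternatives were other background, scaling, probe and spot settings, the replicate block, slide, array brightness, 6-array fits, trend and robust eBayes, adjusted P, within-slide values and each array left out. Some genes that the rules for named genes picked are not reported here.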

Additional observations from a re-analysis of the deposited data

How the results depend on the processing

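The 10 differences of the 5 genes from si-Control kept their sign in every setting run, with 13 alternatives, 9 fits with 1 array left out and 3 slides each. The selection required a rise in every pair of arrays with the same number, so the signs within slides were fixed by it. The other settings reuse the arrays on which the genes were selected, so the kept signs are no independent support for the rises. With 1 array left out they ran from 0.65 (LRP8, HIF-1α knockdown, without si-Control replicate 1) to 1.73 (LRP8, GATA3 knockdown, without si-Control replicate 3). Between the knockdowns 0 of the 5 genes were called in any setting, but the sign turned in some. With the processed signal it was -0.19 for MEGF9, -0.02 for RAB27A and -0.04 for TMTC4, with the authors' table -0.21, -0.05 and -0.07, without background correction -0.03 for MEGF9, and with array brightness as a covariate -0.06 for LRP8, -0.49 for MEGF9, -0.35 for RAB27A and -0.28 for TMTC4. With 1 array left out it ran from -0.13 to 0.36 for MEGF9, -0.19 to 0.31 for RAB27A and -0.32 to 0.48 for TMTC4.

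Counts of called genes moved most, and the cause was not tested. In GATA3 knockdown 1418 genes became 3050 with the processed signal, 2889 with the authors' table, 2381 with the replicate block, 2372 with slide as a random block, 4834 with array brightness, 928 in a fit of 6 arrays and 0 after adjustment, and 953 to 6006 with 1 array left out (most without si-Control replicate 3). In HIF-1α knockdown 2478 became 3983 with the replicate block, 4034 with the random block and 0 after adjustment, and 1412 to 4798 with 1 array left out (most without si-Control replicate 1). Between the knockdowns 5675 became 8876, 8645, 8630 with 6 arrays and 2 after adjustment, and 2693 to 9702 with 1 array left out. Listed genes called went from 4 to 10 with either block, 20 with array brightness and 0 after adjustment in GATA3 knockdown (3 to 18 with 1 array left out), from 6 to 13, 13 and 0 in HIF-1α knockdown (3 to 16), and from 15 to 9 with the processed signal, 23 with 6 arrays and 0 after adjustment between the knockdowns (6 to 24). The calls of listed genes recomputed in these settings kept their sign. Slide and group were balanced, so the replicate block left the differences of the 5 genes as they were. Each of the 5 genes had 1 probe, so other probes gave no value.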
